A study of Homo sapiens with 6 samples.

Results

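The Notch pathway was followed here through 10 genes chosen by name: the receptors NOTCH1, NOTCH2 and NOTCH3, the ligands JAG1, JAG2 and DLL1, the DNA-binding factor RBPJ and the targets HES1, HEY1 and NRARP. Gene identifiers in the authors' deposited comparison table were matched to these symbols, and 9 of the 10 had a row among its 19589 features. DLL1 was not analysed here. The study measured RNA after knockdown of HOTAIR, a long RNA with no protein product that lies among the HOXC genes. One group received a small interfering RNA that targets HOTAIR (siHOTAIR) and the other a negative control small interfering RNA (siNC), with 3 libraries labelled in each. All libraries carry the label HepG2, a cell line from a liver tumour, and no other allele or agent is named for either group. Total RNA was depleted of ribosomal RNA and sequenced with a stranded library kit.

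Notch receptors are single-pass membrane proteins that are cleaved when a ligand on a neighbouring cell binds and pulls on them. The released intracellular part enters the nucleus, joins RBPJ and Mastermind coactivators on DNA, and switches on target genes, many of which encode HES and HEY repressors. In the liver, JAG1 and NOTCH2 are known for their part in bile duct formation, and loss of either gene's function causes Alagille syndrome.

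The deposited means of 18305 features could be taken apart into the whole reads of 5 libraries: 3 siHOTAIR libraries, here called a, b and c, and 2 siNC libraries, d and e. This leaves 1 labelled siNC library unaccounted for, and the replicate numbers of the others are unknown. Over these features the reads recovered came to 4615011, 3722519 and 3528654 in the siHOTAIR libraries and 4757220 and 3602438 in the siNC libraries. Nothing in the labels says whether the libraries came from separate cultures, so errors and p-values speak only for the spread among these libraries, part or all of which may be technical. HOTAIR itself had 62.4, 78.2 and 59.7 normalized counts (reads divided by the library's size factor) in siHOTAIR libraries, against 202 and 150.1 in siNC libraries, which left 37.9% of the siNC mean.

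The labelled cell type was set against its markers. Of 14 hepatocyte and HepG2 markers, 7 had a row, and 5 of these (APOA1, FGB, SERPINA1, TF and AHSG) had deposited means under 1 normalized count. FGB and AHSG had 0 reads in both siNC libraries, and SERPINA1 and TF had 0 in the siHOTAIR libraries. The hepatocyte markers summed to 28.6 to 37.2 normalized counts in siHOTAIR libraries and 19.0 to 20.1 in siNC libraries. These levels go against the label, so the libraries are called by it only as labelled. The other 7 hepatocyte markers, ALB and AFP among them, were not analysed here.

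**Figure D1:**
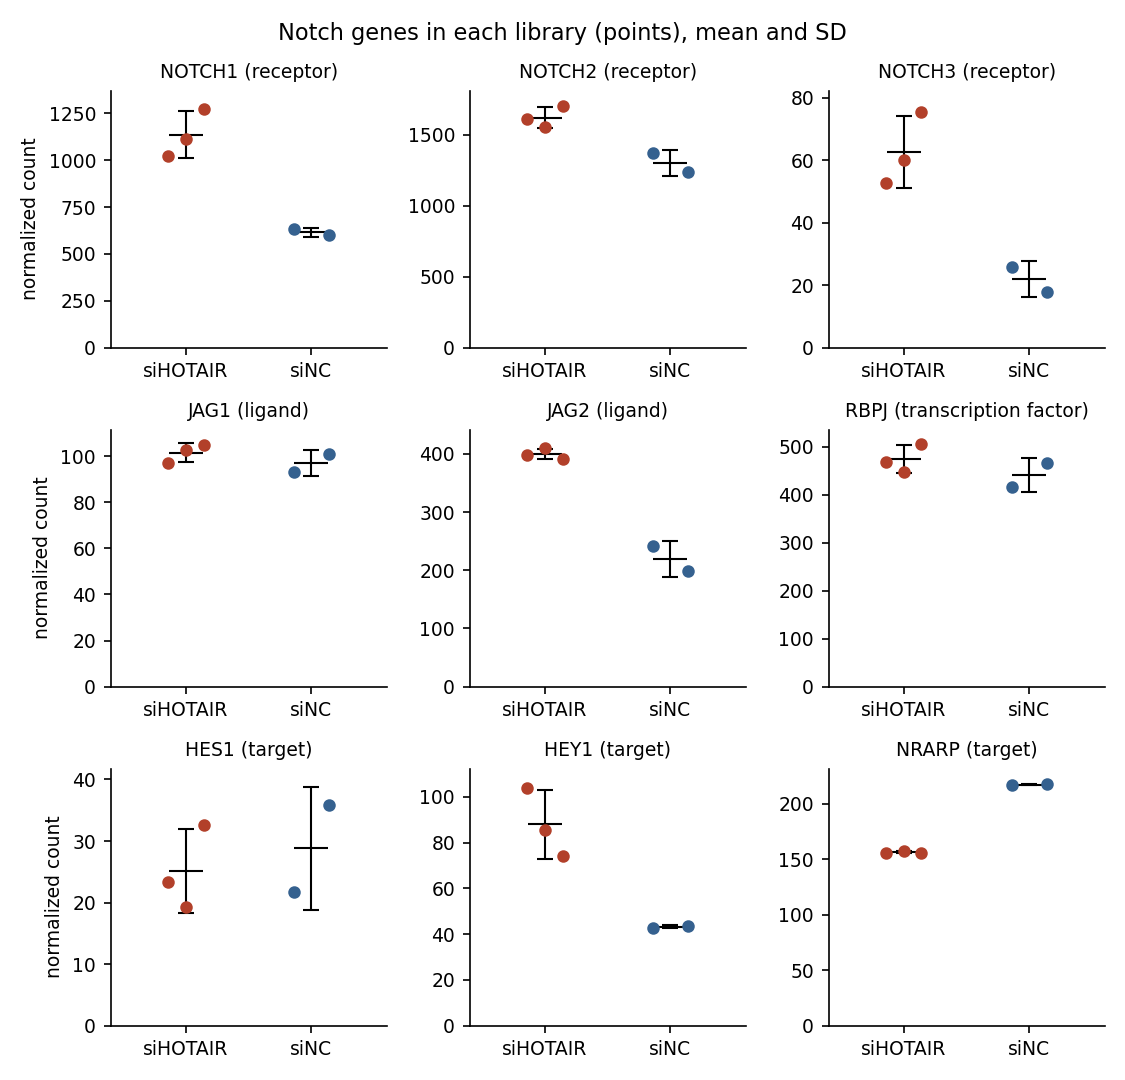
Normalized counts (vertical axes, from 0) of the 9 Notch genes in 3 siHOTAIR libraries (left in each panel) and 2 siNC libraries (right); points are libraries, and black bars are the mean and SD. NOTCH1, NOTCH2, NOTCH3, JAG2 and HEY1 lie higher in every siHOTAIR library, NRARP lies lower in every one, and JAG1, RBPJ and HES1 overlap. Groups did not overlap in 63% of 12994 features with recovered reads.

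Receptors and targets of the pathway changed unevenly in siHOTAIR libraries. By the adjusted p-values of the authors' deposited table, 5 of the 9 genes rose (NOTCH1, NOTCH2, NOTCH3, JAG2 and HEY1), 1 fell (NRARP) and 3 did not pass the threshold of 0.05 (JAG1, RBPJ and HES1). The called share was 66.7% of the 9 genes, against a background of 40.4% of the 14597 features tested, of which 20% rose and 20.4% fell. The median log2 fold change, siHOTAIR over siNC, was 0.31 over the 9 genes and 0.0069 over all features tested in the authors' deposited table. No test of that share against the background was made, since the genes were chosen with earlier results of these data known. In the same libraries, limma with a mean trend on log2(recovered normalized count + 1) called the same 5 genes as higher and the same 1 as lower, where 47% of 12994 features were called, 22.1% higher and 24.9% lower. Groups that did not overlap were common, at 63% of those 12994 features, so such a gap in a single gene is no result by itself. In bulk RNA of this kind, fewer cells of a type and less RNA per cell cannot be told apart.

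Some markers of other cell types differed between the same groups. As background, 40.4% of the 14597 features tested were called, and groups did not overlap in 63% of 12994 features with recovered reads. The marker lists are short, so their counts and sums are a description only. Of 9 fibroblast and stellate markers, 7 had a row. They summed to 2180.4 to 2565 normalized counts in siHOTAIR and 1279.5 to 1286 in siNC libraries. COL1A1 alone made up most of that sum, with 1755 to 2144 in siHOTAIR and 1051 to 1078 in siNC libraries. Of 6 tested, COL1A1, DCN and PDGFRB rose and 3 were not called. Those 3 had log2 fold changes of 0.71 (THY1), -0.07 (COL3A1) and -0.47 (ACTA2). Of 6 endothelial markers, 5 had a row and summed to 1928 to 1961 and 1279 to 1392 normalized counts in siHOTAIR and siNC libraries. Most of that sum was ENG, with 1811 to 1843 in siHOTAIR and 1206 to 1315 in siNC libraries. Of 4 tested, ENG and VWF rose, VWF on 26 reads in all, and 2 were not called. Those 2 had log2 fold changes of 0.47 (CDH5) and -0.16 (PECAM1). The leukocyte sum, over 4 of 6 markers, was 127 to 154 in siHOTAIR libraries and 184 to 204 in siNC libraries. CD68 made up most of it, with 117 to 143 in siHOTAIR and 177 to 197 in siNC libraries. Of 3 tested, CD68 fell and 2 were not called. LYZ went the other way, at 0.93 on the log2 scale, and CD14 had -0.05. Leaving out KRT7 and KRT17, whose reads per library were not recovered, the biliary sum over 4 of 7 markers was 16.9 to 24.6 in siHOTAIR and 8.96 to 18.4 in siNC libraries, and the squamous and other epithelial sum over 5 of 8 was 42.8 to 67.4 in siHOTAIR and 62.7 to 82.9 in siNC libraries. Of the 3 tested squamous and other epithelial markers KRT17 and PAX8 fell, by 0.31 and 0.75 on the log2 scale with adjusted p-values of 0.000534 and 0.0418 from the authors' deposited table. The keratin gene KRT7, of the biliary list, was abundant, with a mean of 11514 normalized counts in the authors' deposited table, and was not called. No marker with a row was at 0 in all 5 libraries. Listed markers without a row were not analysed here, so this says nothing of them. The part of these markers in the Notch results was not tested.

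Of the 3 receptors, NOTCH3 showed the highest fold change. NOTCH3 (gene ID 4854, chromosome 19), a receptor best known from vascular smooth muscle and pericytes, had 52.8, 60.0 and 75.5 normalized counts in siHOTAIR libraries a, b and c and 26.0 and 17.9 in siNC libraries d and e. Every siHOTAIR library lay above both siNC libraries. The means were 62.8 ± 11.6 in siHOTAIR (SD, n = 3) and 21.9 ± 5.68 in siNC (SD, n = 2), from 61, 56 and 67 reads against 31 and 16. The log2 fold change in the authors' deposited table was 1.38 with a standard error of 0.30 and an adjusted p of 2.52e-05, or 2.61-fold. That fold change is shrunken toward 0, and the plain ratio of the recovered means was 2.86. NOTCH3 was the only one of the 9 genes that met both an adjusted p under 0.001 and a 2-fold change, the rule of the authors' own filtered list, which 4.61% of tested features met.

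NOTCH1 (gene ID 4851, chromosome 9), a receptor with roles in T cell and vascular development, had 1025, 1111 and 1273 normalized counts in siHOTAIR libraries, against 632 and 599 in siNC libraries. The groups were far apart, at 1136 ± 126 in siHOTAIR (SD, n = 3) and 616 ± 23.1 in siNC (SD, n = 2). The authors' deposited table gave NOTCH1 a log2 fold change of 0.87 with a standard error of 0.0969 and an adjusted p of 6.31e-18, or 1.83-fold. NALT1, a non-coding gene located beside NOTCH1, was not called, with 0.16 on the log2 scale and an adjusted p of 0.612 from the authors' deposited table.

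NOTCH2 (gene ID 4853, chromosome 1) differed by less. It had 1613, 1552 and 1702 normalized counts in siHOTAIR libraries and 1369.7 and 1238 in siNC libraries, with no overlap between the groups. Its means were 1623 ± 75.4 in siHOTAIR (SD, n = 3) and 1304 ± 93.1 in siNC (SD, n = 2). The log2 fold change in the authors' deposited table was 0.31 with a standard error of 0.0767 and an adjusted p of 0.000248, or 1.24-fold. With limma on the recovered reads the adjusted p was 0.00165, and without siNC library e it was 0.0512.

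NOTCH2 shares long stretches with NOTCH2NLA, a truncated near-copy on chromosome 1, and reads may be split between the pair. NOTCH2NLA went the other way, with 549, 535 and 577 normalized counts in siHOTAIR libraries against 718 and 685 in siNC libraries. Its log2 fold change in the authors' deposited table was -0.34 with a standard error of 0.0920 and an adjusted p of 0.00091. Summed, NOTCH2 and NOTCH2NLA had 2162, 2088 and 2279 normalized counts in siHOTAIR libraries, against 2088 and 1923 in siNC libraries. The summed ranges met only at their edges, with 2087.6 in siHOTAIR library b beside 2088.0 in siNC library d. A two-sided exact permutation test of the log2 sums gave a p of 0.4. With 3 libraries against 2 that p cannot go below 0.2, so the test cannot decide whether the sum differed. How the counting divided such reads was not tested, so the direction of NOTCH2 alone is uncertain.

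Over the 3 receptors, level per kilobase of exon summed to 217, 223 and 251 normalized counts per kilobase in siHOTAIR libraries and 156 and 144 in siNC libraries. NOTCH1 made up 50.8% to 54.4% of that receptor sum in siHOTAIR libraries and 43.5% to 44.9% in siNC libraries. NOTCH3 contributed 2.82% to 3.46% in siHOTAIR libraries and 1.44% to 1.92% in siNC libraries. NOTCH2 supplied the rest, and its share was lower in every siHOTAIR library even though its own normalized count was higher. The size of the shares depends on the gene length used and on the uncertain NOTCH2 reads. With principal transcripts NOTCH1 made up 42.7% to 46.4% in siHOTAIR libraries and 35.5% to 36.8% in siNC libraries, below NOTCH2 in every library.

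The ligands split. JAG2 (gene ID 3714, chromosome 14), a ligand of the Serrate type, had 398, 410.0 and 392 normalized counts in siHOTAIR libraries, against 242 and 198 in siNC libraries. The siHOTAIR libraries lay close together and above both siNC libraries, at 399.9 ± 9.21 (SD, n = 3) and 220.1 ± 30.9 (SD, n = 2). The authors' deposited table gave JAG2 a log2 fold change of 0.84 with a standard error of 0.123 and an adjusted p of 1.16e-10, or 1.79-fold. The GENCODE 29 annotation places a processed transcript, AL512356.1, on the same strand over exons of JAG2, so some of these reads may belong to it.

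JAG1 (gene ID 182, chromosome 20), the other Serrate-type ligand, had 97.0, 103 and 105 normalized counts in siHOTAIR libraries and 92.9 and 101 in siNC libraries. The 2 groups overlapped, with means of 102 ± 4.02 in siHOTAIR (SD, n = 3) and 96.9 ± 5.59 in siNC (SD, n = 2). The log2 fold change in the authors' deposited table was 0.07 with a 95% interval of -0.31 to 0.44 and an adjusted p of 0.821. An antisense gene, AL050403.2, overlaps JAG1 exons, and whether the counting used strand is not given in the sources.

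**Figure D2:**
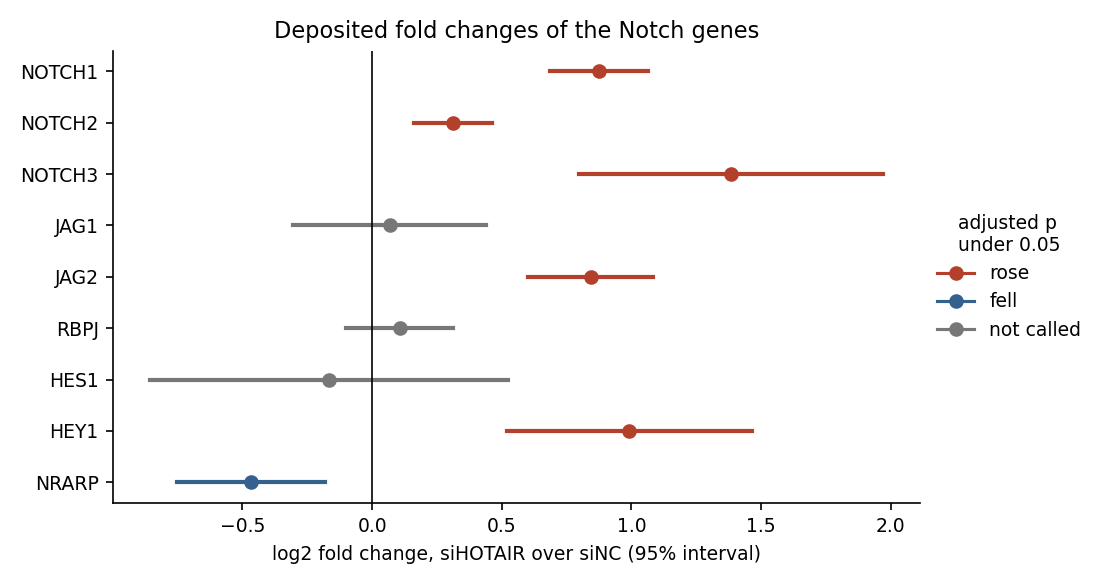
Log2 fold changes of the 9 Notch genes, siHOTAIR over siNC, from the authors' deposited table (horizontal axis), with 95% intervals as lines. NOTCH3 lies highest at 1.38, NRARP is lowest at -0.47, and the intervals of JAG1, RBPJ and HES1 cross 0.

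RBPJ (gene ID 3516, chromosome 4), the factor through which all Notch receptors act on DNA, had 468, 449 and 506 normalized counts in siHOTAIR libraries and 416 and 466 in siNC libraries. The groups overlapped, at 474 ± 29.1 in siHOTAIR (SD, n = 3) and 441 ± 35.3 in siNC (SD, n = 2). The authors' deposited table gave RBPJ a log2 fold change of 0.11 with a 95% interval of -0.10 to 0.31 and an adjusted p of 0.459. RBPJ has processed pseudogenes whose reads the counting could have shared.

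The targets moved in different directions, and their start-site sequences are shown for the genes that hold the word bound by RBPJ. The word searched was TGGGAA on both strands, with GTGGGAA as a longer form that contains it. The windows were RefSeq promoters of GRCh38.p14, 250 bases before to 50 after each start, and positions are counted with the first base of the gene as 0. Of 35116 windows, 24.0% held TGGGAA and 6.25% held GTGGGAA. Among the Notch genes with windows, 8 of 9, TGGGAA was found in HES1 and in 1 of the 5 RBPJ windows, and not in those of NOTCH1, NOTCH2, NOTCH3, JAG1, JAG2 or NRARP. HES1 held it at -84 and -70, the RBPJ window also held it 2 times, and 3.80% of all windows held it 2 or more times. The longer GTGGGAA was in the HES1 window once and in that RBPJ window 2 times, and 0.25% of all windows held it 2 or more times. HEY1 was not searched. Outside the 9 genes, HES4, a related target, and POFUT1 were also searched, and both are described further on. HES4 held TGGGAA once, at -76, within the longer form, and POFUT1 did not hold it. A match is a description of these letters and not of a bound site. The stretches around these matches, 30 bases each on the gene's strand, are given with the word in capitals, HES1 from chr3:194136059-194136088 (plus strand) and HES4 from chr1:1000156-1000185 (minus strand).
HES1: tactgTGGGAAagaaagttTGGGAAgtttc
HES4: ctggggcgagtgTGGGAAagaatgcggagc

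HES1 (gene ID 3280, chromosome 3), a repressor and a direct target of the Notch and RBPJ complex in many cell types, had few reads, 27, 18 and 29 in siHOTAIR libraries against 26 and 32 in siNC libraries. As normalized counts these were 23.4, 19.3 and 32.7 in siHOTAIR libraries and 21.8 and 35.9 in siNC libraries. The groups overlapped, with means of 25.1 ± 6.86 in siHOTAIR (SD, n = 3) and 28.8 ± 9.96 in siNC (SD, n = 2). The log2 fold change in the authors' deposited table was -0.17 with a 95% interval of -0.86 to 0.52 and an adjusted p of 0.757. The limma estimate changed sign to 0.17 without siNC library e, so HES1 has no settled direction at this depth.

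HEY1 (gene ID 23462, chromosome 8), another repressor induced by Notch, was higher. It had 104, 85.6 and 74.4 normalized counts in siHOTAIR libraries, against 42.7 and 43.7 in siNC libraries. All siHOTAIR libraries lay above both siNC libraries, at 88.0 ± 14.9 (SD, n = 3) and 43.2 ± 0.705 (SD, n = 2). HEY1 rose 1.99-fold in the authors' deposited table, a log2 fold change of 0.99 with a standard error of 0.241 and an adjusted p of 0.000203.

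NRARP (gene ID 441478, chromosome 9), a Notch-induced ankyrin repeat protein that acts back on the Notch complex as an inhibitor, was the only one of the 9 genes that fell. It had 156, 157 and 155 normalized counts in siHOTAIR libraries, against 217 in each of the siNC libraries. The spread within a group was small beside the gap, at 156.3 ± 0.996 in siHOTAIR (SD, n = 3) and 217.1 ± 0.367 in siNC (SD, n = 2), which left 72.0% of the siNC mean. With 138 to 259 reads a library, agreement this close is tighter than the counting error of the reads and should not be read as the precision of the assay. The authors' deposited table gave NRARP a log2 fold change of -0.47 with a standard error of 0.145 and an adjusted p of 0.00456, or 1.38-fold lower.

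Ratios between genes within a library do not depend on how libraries were scaled. NOTCH1 over NOTCH2 was 0.635, 0.716 and 0.748 in siHOTAIR libraries and 0.461 and 0.484 in siNC libraries. JAG2 over JAG1 was 4.10, 3.99 and 3.74 in siHOTAIR libraries, against 2.60 and 1.97 in siNC libraries. HEY1 over HES1 was 4.44, 4.44 and 2.28 in siHOTAIR libraries and 1.96 and 1.22 in siNC libraries. The HEY1 ratio has the widest spread of the 4 shown, and its lowest siHOTAIR value lies close to the higher siNC value. NRARP over NOTCH1 was 0.152, 0.142 and 0.122 in siHOTAIR libraries, against 0.343 and 0.363 in siNC libraries. NOTCH3 over NOTCH1 was 0.0516, 0.0539 and 0.0593 in siHOTAIR libraries and 0.0411 and 0.0299 in siNC libraries. In these 5 ratios the groups did not overlap, but 3 libraries against 2 cannot give a two-sided exact permutation p below 0.2, which each of them had. With 7 such quantities computed, none can pass a threshold of 0.05. Across 12994 features with recovered reads, 63% had groups that did not overlap.

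**Figure D3:**
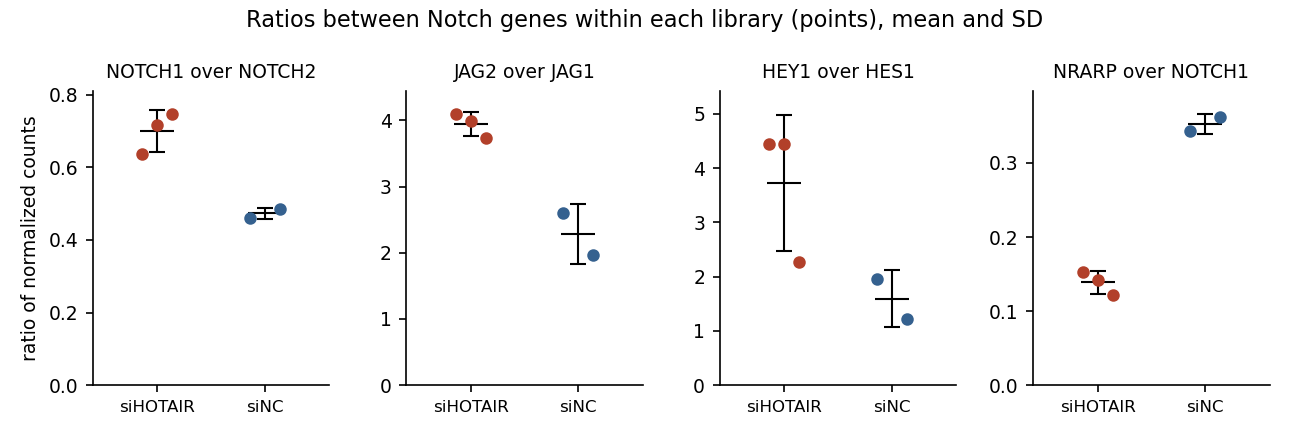
Ratios of normalized counts between Notch genes within each library (vertical axes, from 0) for 3 siHOTAIR libraries (left) and 2 siNC libraries (right); points are libraries, and black bars are the mean and SD. NOTCH1 over NOTCH2, JAG2 over JAG1 and HEY1 over HES1 lie higher in every siHOTAIR library, and NRARP over NOTCH1 lies lower in every one.

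Levels per kilobase of exon (GENCODE 29, all exons of a gene joined) were ordered differently in the 2 groups. In siHOTAIR libraries the mean level was 122 normalized counts per kilobase for NOTCH1, 101 for NOTCH2, 88.3 for NRARP, 73.0 for RBPJ, 68.5 for JAG2, 34.1 for HEY1, 17.1 for JAG1, 15.9 for HES1 and 7.24 for NOTCH3. In siNC libraries it was 123 for NRARP, 81.1 for NOTCH2, 67.9 for RBPJ, 66.2 for NOTCH1, 37.7 for JAG2, 18.3 for HES1, 16.8 for HEY1, 16.3 for JAG1 and 2.53 for NOTCH3. NOTCH3, the gene with the highest fold change, was the lowest of the 9 in both groups. Neighbours whose library values overlapped were RBPJ with JAG2 and JAG1 with HES1 in siHOTAIR libraries, and RBPJ with NOTCH1, HES1 with HEY1 and HEY1 with JAG1 in siNC libraries. With the length of each gene's principal transcript, NOTCH2 came before NOTCH1 in siHOTAIR libraries, with overlapping values, and HEY1 before HES1 in siNC libraries, also with overlap.

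The wider pathway was described with 88 other genes grouped by role, of which 81 had a row and 77 were tested. By the authors' deposited adjusted p-values, 16 of these rose, 13 fell and 48 did not pass the threshold, a called share of 37.7% against 40.4% of all features. Their median log2 fold change was -0.02, against 0.0069 for all features tested. The share lies near the background, so the list as a whole is no result, and its members are given as single genes. Counts by role below cover few genes each, stand beside the same 40.4%, and were not tested.

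**Figure D4:**
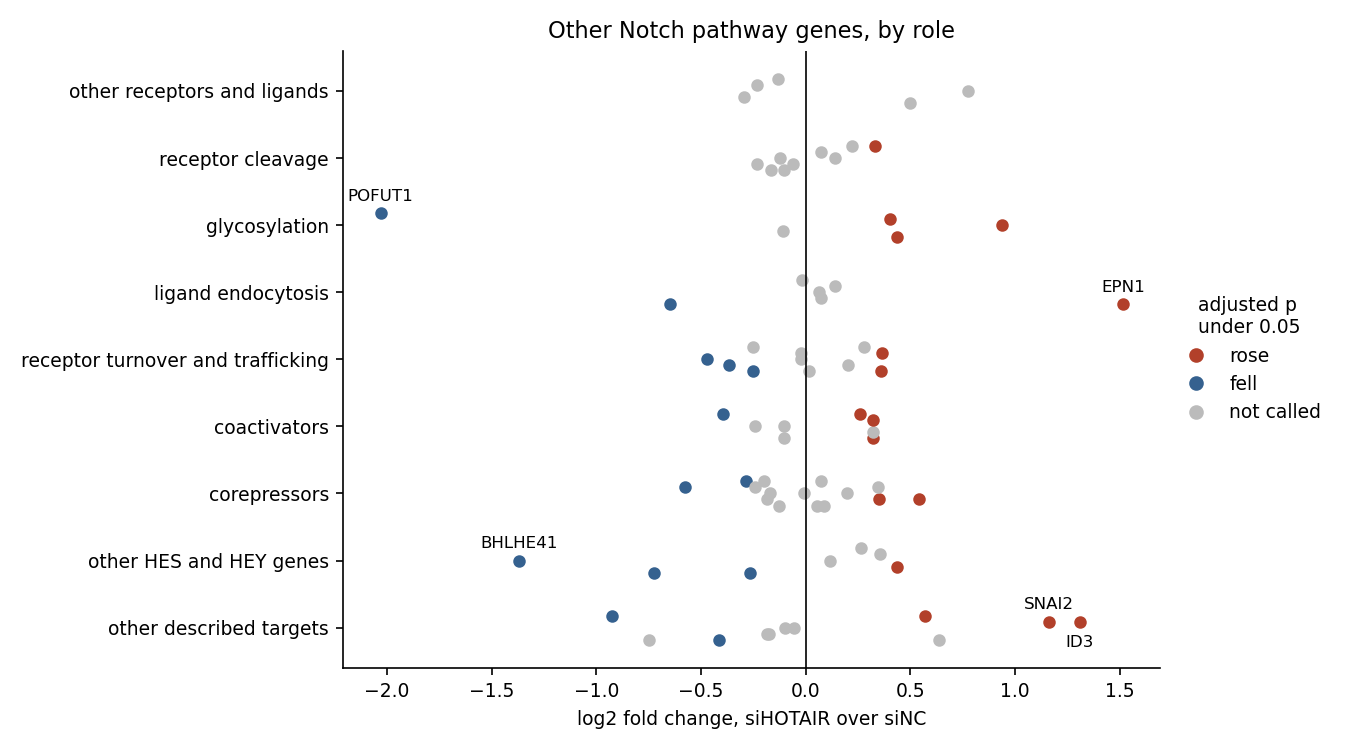
Log2 fold changes, siHOTAIR over siNC, of 77 other Notch pathway genes from the authors' deposited table (horizontal axis), in rows by role; points are genes, coloured by whether the adjusted p was under 0.05, and spread vertically for legibility only. POFUT1 at -2.03 lies lowest and EPN1 at 1.52 highest.

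Of the 5 enzymes that glycosylate the receptors, 3 rose, 1 fell and 1 was not called, with the lowest fold change of the pathway among them. The called share of 80%, against 40.4% of all features tested, rests on 5 genes and was not tested. POFUT1, which adds the O-fucose that ligand binding and the Fringe enzymes need, had 144, 152 and 181 normalized counts in siHOTAIR libraries, against 651 and 662 in siNC libraries. The groups were far apart, and siHOTAIR libraries kept 24.2% of the siNC mean. The log2 fold change of POFUT1 in the authors' deposited table was -2.03 with a standard error of 0.121 and an adjusted p of 4.25e-61, or 4.09-fold lower. The 3 Fringe genes, whose enzymes lengthen that O-fucose, were higher. LFNG had 155, 177 and 167 normalized counts in siHOTAIR libraries and 119.7 and 124 in siNC libraries, with 0.44 on the log2 scale and an adjusted p of 0.0218 from the authors' deposited table. RFNG had 344, 361 and 399 in siHOTAIR libraries and 285 and 267 in siNC libraries, with 0.40 and an adjusted p of 0.00276 from the authors' deposited table. MFNG, with 128 reads in all, had 25.1, 34.3 and 38.3 normalized counts in siHOTAIR libraries and 18.4 and 12.3 in siNC libraries, with 0.94 and an adjusted p of 0.0286 from the authors' deposited table. For all 3 Fringe genes the groups did not overlap, as in 63% of 12994 features with recovered reads. POGLUT1, the O-glucosyltransferase, overlapped between the groups, and its log2 fold change of -0.11 had an adjusted p of 0.625 from the authors' deposited table.

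**Figure D5:**
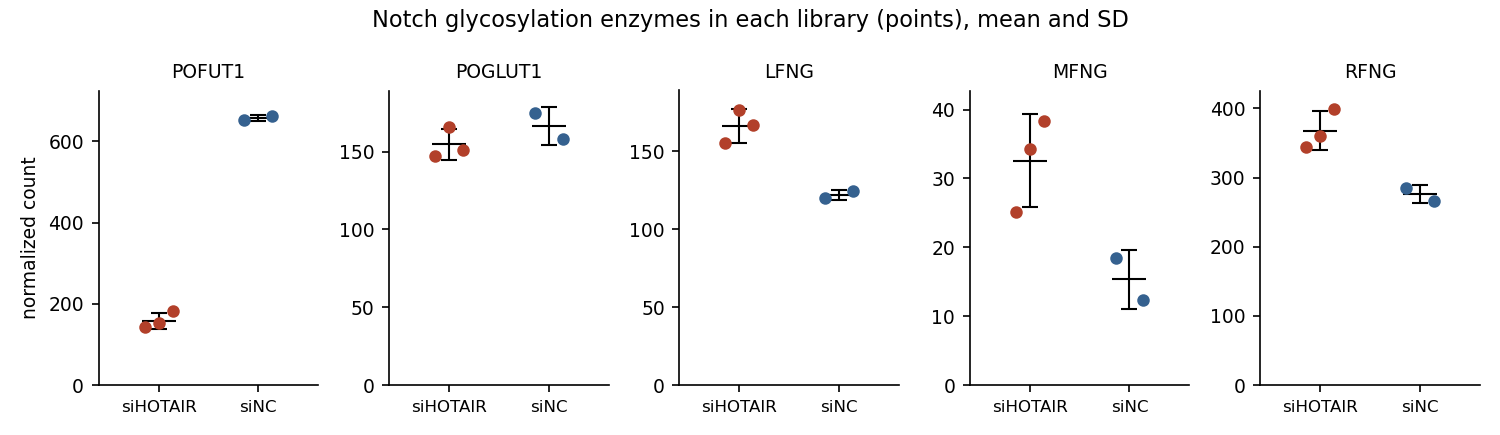
Normalized counts (vertical axes, from 0) of 5 enzymes that glycosylate Notch receptors in 3 siHOTAIR libraries (left) and 2 siNC libraries (right); points are libraries, and black bars are the mean and SD. POFUT1 lies between 144 and 181 in siHOTAIR libraries, below 651 and 662 in siNC libraries, while LFNG, MFNG and RFNG lie higher in every siHOTAIR library.

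Among 6 genes for ligand endocytosis, 1 rose and 1 fell. EPN1, an epsin adaptor of the kind that pulls ubiquitinated ligands into the sending cell, had 2983, 3317 and 3321 normalized counts in siHOTAIR libraries, against 1103 and 1130.5 in siNC libraries. All siHOTAIR libraries lay far above the siNC libraries, with a log2 fold change of 1.52, a standard error of 0.0754 and an adjusted p of 9.49e-87 from the authors' deposited table. NEURL1B, a ubiquitin ligase of the Neuralized family that acts on ligands, was lower, at 83.2, 85.6 and 96.9 in siHOTAIR libraries against 135 and 146 in siNC libraries. Its log2 fold change in the authors' deposited table was -0.65 with an adjusted p of 0.00161. The ligases MIB1 and MIB2, NEURL1 and the epsin EPN2 did not pass.

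Receptor cleavage held 1 call among 9 tested genes. APH1A, a subunit of gamma-secretase, rose by 0.33 on the log2 scale with an adjusted p of 0.000154 from the authors' deposited table, with 1543, 1469 and 1490.4 normalized counts in siHOTAIR libraries and 1111 and 1279.5 in siNC libraries. The gamma-secretase subunits PSEN2 and nicastrin (NCSTN) and the proteases ADAM10 and ADAM17 did not pass. Of 5 tested other receptors and ligands, 0 were called with the authors' deposited adjusted p, 1 had an unadjusted p under 0.05, and limma on the recovered reads called 2. The smallest p-values among them belonged to DLL3, at 0.77 on the log2 scale with an adjusted p of 0.0999, and DLK2, at 0.50 with 0.123, both from the authors' deposited table. The limma adjusted p-values were 0.0340 for DLL3 and 0.0366 for DLK2, both higher in every siHOTAIR library, so the call of these 2 ligands depends on the test.

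Genes of receptor turnover and trafficking numbered 11 tested, of which 2 rose and 3 fell. NUMB, an adaptor that antagonises Notch, fell by 0.36 on the log2 scale with an adjusted p of 0.00133 from the authors' deposited table, with 432, 398 and 421 normalized counts in siHOTAIR libraries and 555 and 521 in siNC libraries. Its relative NUMBL rose by 0.37 with an adjusted p of 0.00299, also from the authors' deposited table, with 429.7, 407 and 430.3 normalized counts in siHOTAIR libraries and 325 and 329 in siNC libraries. The pair thus moved in opposite directions, with no overlap between the groups for either, as in 63% of 12994 features with recovered reads. The ubiquitin ligase NEDD4 fell by 0.47 with an adjusted p of 0.00112, and the kinase AAK1 rose by 0.36 with an adjusted p of 0.000460, both from the authors' deposited table.

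Nuclear cofactors moved in both directions. Of 8 coactivators, 3 rose and 1 fell. The Mastermind gene MAML1 rose by 0.32 on the log2 scale (adjusted p 0.00131), the acetyltransferase CREBBP by 0.32 (adjusted p 0.000563) and the acetyltransferase KAT2A by 0.26 (adjusted p 0.00256), and SNW1, which also serves in splicing, fell by 0.40 (adjusted p 5.28e-05), all from the authors' deposited table. MAML2, MAML3 and EP300 did not pass. Of 15 tested corepressors, 2 rose and 2 fell. The Groucho-type corepressor TLE3 rose by 0.35 with an adjusted p of 2.65e-05 from the authors' deposited table. The deacetylase HDAC3 fell by 0.58 with an adjusted p of 1.06e-06, and HDAC1 by 0.29 with an adjusted p of 0.00181, both from the authors' deposited table.

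Of 7 tested other HES and HEY genes and their relatives, 1 rose and 3 fell. HES4, whose start-site stretch is given above beside that of HES1, had 726, 741 and 697 normalized counts in siHOTAIR libraries, against 509.9 and 557 in siNC libraries. Every siHOTAIR library lay higher, with a log2 fold change of 0.44 and an adjusted p of 1.71e-05 from the authors' deposited table. HES1, with 18 to 32 reads a library, gave no call, and the difference between the pair was not tested. HES7, a gene of the somite clock, fell by 0.27 with an adjusted p of 0.010 from the authors' deposited table. BHLHE40 and BHLHE41, related repressors of the circadian clock and of the response to low oxygen, fell by 0.72 and 1.37 with adjusted p-values of 5.23e-25 and 0.000140 in the authors' deposited table. BHLHE41 had 16.5, 19.3 and 16.9 normalized counts in siHOTAIR libraries and 51.1 and 47.1 in siNC libraries.

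Other described targets numbered 11 tested, of which 3 rose and 2 fell. ID3, an inhibitor of basic helix-loop-helix factors, had 3037, 2893 and 2790.4 normalized counts in siHOTAIR libraries, against 1120.2 and 1222 in siNC libraries, with a log2 fold change of 1.31 and an adjusted p of 1.32e-67 from the authors' deposited table. The cell cycle inhibitor CDKN1A had 1273, 1255 and 1268 in siHOTAIR libraries and 2291 and 2528 in siNC libraries, and fell by 0.92 with an adjusted p of 1.37e-35 from the authors' deposited table. The growth regulator MYC rose by 0.57 with an adjusted p of 6.67e-16, and the G1 cyclin CCND1 fell by 0.41 with an adjusted p of 5.73e-09, both from the authors' deposited table. These genes answer to many other signals, and nothing in these values ties their change to Notch.

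The features most like NOTCH3 across the 5 libraries were found among 9467 features with a mean of at least 50, by the root mean square difference of centred log2 values. They were MIR612 at 0.117, TMPO-AS1 at 0.143 and ANKRD18A at 0.144 on the log2 scale. MIR612 had a mean of 1045 normalized counts in the authors' deposited table, and which transcript its reads came from was not tested. The likeness covers 5 libraries of the same 2 groups and is a description only.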

How the data were processed

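RNA sequencing libraries with the label HepG2 were grouped by their titles into siHOTAIR and siNC. HTSeq 0.6.1, DESeq, DESeq2 and the build hg19 are named in the submitters' processing notes. Aligner, annotation and strand setting are not given in the sources. The members and gene lists were chosen with earlier results of these data known.

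The deposited tables hold the authors' comparison and 0 columns of single libraries. The mean column holds a signal deposited by the authors, counts over size factors averaged across libraries. The deposited log2 fold changes are shrunken and come with a standard error. The deposited score is the fold change over that error. The authors' deposited p-values were used as given, adjusted ones under 0.05 defining calls. Intervals span 1.96 standard errors to each side of the deposited fold change. Identifiers were matched to symbols of RefSeq GRCh38.p14, 19108 by gene ID, 386 by accession, and 95 found no match.

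Reads per library were recovered from the means. Features with a single read gave 5 steps, assigned to siHOTAIR or siNC by the sign of the deposited fold change. Whole-number solutions to 15 printed digits were found for 10268 of 10268 features with a mean up to 100, for 8026 of 8038 up to 1500, and for 11 of 11 list genes above that and up to 2500. For a mean above 100 several solutions can match, and the one kept also gave back the deposited fold change within 1e-05 on the log2 scale. The spread in that fit was set to give the deposited standard error, so the error was no separate check. The procedures were tested on simulated data. Size factors were 1.15, 0.934 and 0.888 for siHOTAIR and 1.19 and 0.893 for siNC.

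No deposited column holds counts, so no count test was run, and limma 3.58.1 (R 4.3.3) with a mean trend was fitted to log2(recovered normalized count + 1) over 12994 features with a mean of 5 to 1500, with Benjamini-Hochberg adjustment. Genes were named by rule: HOTAIR, all members, up to 4 called genes per list in order of p or the 2 smallest p-values where none was called, and the 3 features most like the called member of largest change. NOTCH2NLA, NALT1, KRT7 and genes named as not passing were chosen after their values had been seen. A few list genes are left out of the text.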

Additional observations from a re-analysis of the deposited data

How the results depend on the processing

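Calls of the 9 Notch genes were recounted with an adjusted p under 0.01, with p-values adjusted over all features with a p or over those with a mean of at least 20, with fold changes centred on the median of all features, and with limma on recovered reads, and each gave 5 that rose and 1 that fell. With an adjusted p under 0.001 and at least a 2-fold change, 1 rose and 0 fell. Calls by limma were recounted with pseudocounts of 0.5 and 4, equal totals, voom, no filter and a mean of at least 20, each within 1.5 times of the first count. Leaving out each library in turn gave 4 to 5 that rose and 1 that fell. The call lost was NOTCH2, without siNC library e (0.24, limma adjusted p 0.0512), and the cause was not tested. Without the same library HES1, not called in either case, reversed to 0.17 with an adjusted p of 0.770 by limma, and its leave-one-out range was -0.53 to 0.17. Where a library left out leaves siNC with 1 library, that library is assumed to vary like the siHOTAIR libraries. No paired analysis was possible because the recovered libraries carry no replicate numbers. Lengths of principal transcripts were added as an alternative after seeing the data. Depth limits HES1 and NOTCH3, with 18 to 32 and 16 to 67 reads a library.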
